A study of Sus scrofa with 2 samples.

Results

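miR-148a, miR-148b and miR-152 are 3 related miRNAs whose mature 3p strands carry the same seed, and they were followed here in pig (Sus scrofa) oocytes with and without Dicer knockdown. The members were chosen by name, and a read was assigned to one when it was 18 to 26 nt long, held nt 2 to 18 of the mature strand with no mismatch and began within 2 nt of its 5' end. Counted by strand, their 3p and 5p strands are 6 of the 153 miRNA entries that had a read in these libraries. The Dicer KD oocytes had been treated at the germinal vesicle stage with siRNA against Dicer, matured in vitro for 42 h and collected at metaphase II. The control oocytes were likewise matured for 42 h to metaphase II, and the labels do not say what they were given in place of that siRNA, how many oocytes each library holds or which animals they came from. There was 1 small RNA library per group, so no test between conditions was possible and each comparison is between these libraries.

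The Dicer KD library held 11982925 reads and the control library 11836160, of which 71.8% and 74.1% were 18 to 26 nt long. A single read was therefore worth 0.0835 and 0.0845 RPM, the reads of a sequence or miRNA divided by the library's total and given per 1000000 reads. All intervals are 95% intervals of counting error only and treat each read as independent. Without molecular identifiers, reads copied by PCR cannot be counted back to molecules, so the intervals could be too narrow. Neither Dicer nor any other mRNA was measured by these libraries, so the knockdown and the oocyte identity were not checked here. Of 5 miRNAs listed for granulosa cells all had reads in both libraries. Their sum was 608 RPM in the Dicer KD library and 472 RPM in the control library. Of this sum miR-21 held 599 and 463 RPM. The rest of the list went both ways. In Dicer KD and control, miR-202 had 32 and 6 reads and miR-212 had 7 and 6. In contrast, miR-132 had 45 and 57 reads and miR-383 had 27 and 47. Of 3 listed for blood, miR-144 was at 0 in both libraries and the sum was 47.1 and 35.5 RPM, of which miR-486 held 46.6 and 34.9 RPM, while miR-451 had 5 and 7 reads.

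A miRNA is cut from a hairpin by Drosha in the nucleus and then by Dicer in the cytoplasm, which leaves a duplex of a 5p and a 3p strand. One strand is kept by an Argonaute protein and the other is mostly degraded. Bases 2 to 8 of the kept strand, the seed, find the target mRNAs, so miRNAs with the same seed form a family with shared targets. The miR-148 and miR-152 family is known in human and mouse cells for targeting the DNA methyltransferase DNMT1, and miR-148a is an abundant miRNA of liver and milk. In the RefSeq annotation of the pig assembly Sscrofa11.1, where all 3 members were found by symbol, MIR148B lies within COPZ1 and MIR152 within COPZ2, which encode paralogous subunits of the coat of transport vesicles, and no other gene overlaps MIR148A.

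The forms on which the results turn are shown as read from the deposited libraries, 5' to 3', with the seed in capitals. The miR-148a form was the most abundant of that member in both libraries, the miR-148b form is the one without added thymines, and the miR-152 form was its only control read.
miR-148a-3p, 22 nt: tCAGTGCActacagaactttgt
miR-148b-3p, 22 nt: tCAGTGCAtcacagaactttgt
miR-152-3p, 21 nt: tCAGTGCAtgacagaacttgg
Counted from 1 at the 5' end and over nt 2 to 18, miR-148b differs from miR-148a by C9T and T10C, miR-152 from miR-148a by C9T and T10G, and miR-152 from miR-148b by C10G alone.

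miR-148a was nearly the whole family, and its level was nearly the same in both libraries. It had 35403 reads in the Dicer KD library and 33620 in the control library, or 2954 RPM (exact Poisson interval 2924 to 2985) and 2840 RPM (2810 to 2871). The ratio of Dicer KD to control was 1.04 (exact conditional interval 1.02 to 1.06). This difference is beyond the counting error of independent reads but has no replicate check. miR-148b had 20 and 19 reads, 1.67 RPM (1.02 to 2.58) and 1.61 RPM (0.966 to 2.51), with a ratio of 1.04 (0.527 to 2.06), so no difference was detectable at this depth. miR-152 had 28 reads in the Dicer KD library and 1 in the control library, 2.34 RPM (1.55 to 3.38) and 0.0845 RPM (0.00214 to 0.471), a ratio of 27.7 (4.57 to 1131) whose width comes from the lone control read. miR-148a thus held 99.86% (exact binomial interval 99.82 to 99.90%) of the family's 3p reads in the Dicer KD library and 99.94% (99.91 to 99.96%) in the control library.

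**Figure D1:**
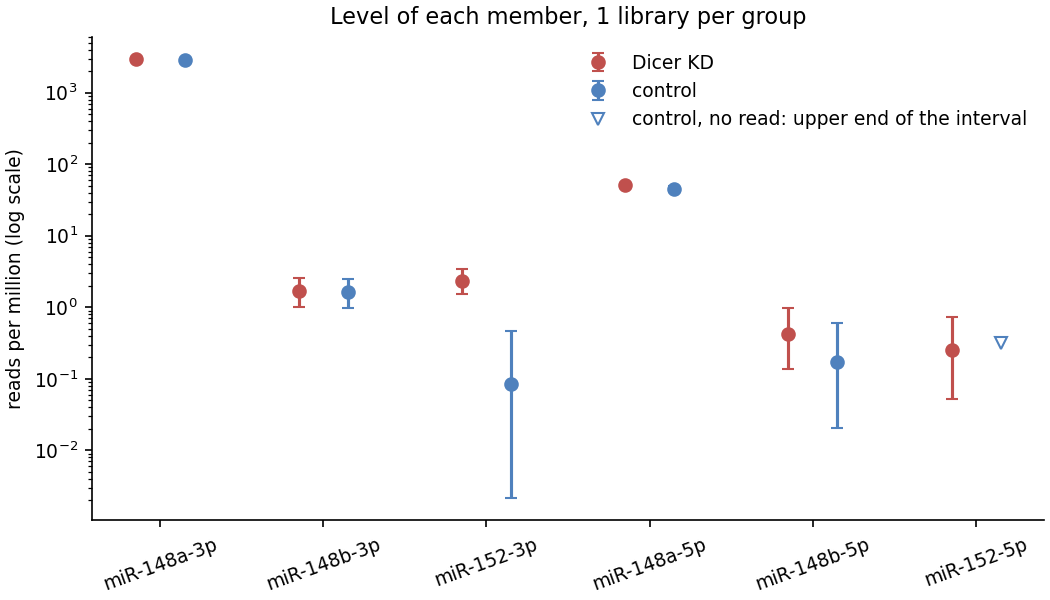
Level of the 3p strand and the 5p strand of each member in RPM, on a log scale, for the Dicer KD and the control library, with exact 95% Poisson intervals and an open triangle at the upper end of the interval where there was no read. miR-148a-3p stands at 2954 and 2840 RPM, above all other strands shown, and the intervals of the libraries do not overlap for miR-148a-3p and miR-152-3p.

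Among all miRNAs matched here, miR-148a had rank 3 by reads, after miR-10b and miR-182. It made up 4.46% (4.41 to 4.50%) of all miRNA reads in the Dicer KD library and 4.34% (4.29 to 4.38%) in the control library. The miRNAs next below it were miR-205, at 1484 and 1820 RPM, miR-92a, at 952 and 1043 RPM, and let-7f, at 816 and 643 RPM. miR-205, known from epithelia, had a ratio of 0.816 (0.800 to 0.832), miR-92a, of the miR-17/92 cluster, 0.913 (0.890 to 0.936), and let-7f 1.27 (1.23 to 1.31), so the ratio of miR-148a lies between those of its neighbours in abundance.

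A sum of 100 reads over the libraries was reached by 74 miRNA entries. The Dicer KD library was higher by 2-fold or more for 18 of these and lower for 1, which puts 25.7% of entries past 2-fold and leaves 55 between. miR-148a was the 1 of the 3 members with enough reads for this count, and 0 of that 1 passed 2-fold. Its log2 ratio was 0.06, against a median of 0.28 over the 74 entries, with 28 entries below it and 45 above. Relative to miRNA reads other than those of miR-10b and miR-182, the ratio of miR-148a turned to 0.894 (0.881 to 0.908), and the median of the 74 entries shifted by -0.22 on the log2 scale. The distance of miR-148a to that median was -0.22, which is fixed under any scaling because a scaling shifts all entries equally.

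**Figure D2:**
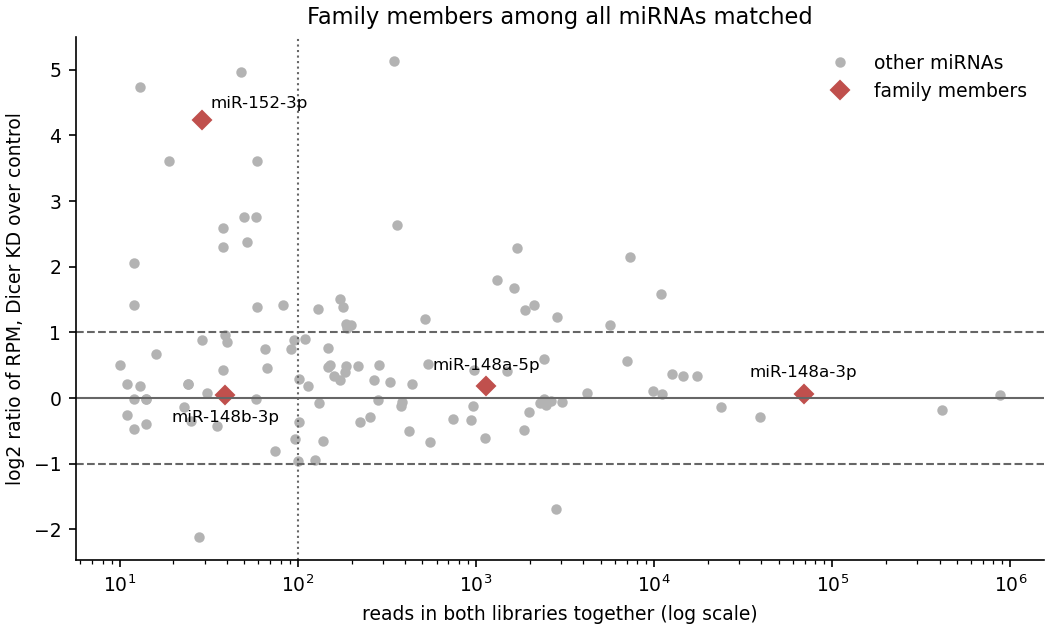
Log2 ratio of RPM, Dicer KD over control, with 0.5 reads added to each count, against the reads in both libraries together on a log scale, for miRNA entries with at least 10 reads. Dashed lines mark 2-fold and the dotted line 100 reads; miR-148a-3p and miR-148a-5p lie near 0, and miR-152-3p lies at 4.23 among other entries with few reads.

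By likeness of log2 ratio over the 2 libraries, the miRNAs with at least 1000 reads nearest to miR-148a were miR-128, miR-10b and miR-320a. Their log2 ratios differed from that of miR-148a by 0.0029, 0.0104 and 0.0256. miR-128 stood at 474 and 455 RPM, miR-10b at 37129 and 35954 RPM, and miR-320a at 180 and 170 RPM. With 2 libraries this likeness describes 1 ratio per miRNA.

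The seed was carried almost entirely by the listed members. Reads of 18 to 26 nt with the same bases 2 to 8 numbered 35785 in the Dicer KD library and 33982 in the control library, and members made up 99.05% (98.94 to 99.15%) and 98.98% (98.86 to 99.08%) of them. The 5' end, which sets the seed, was fixed: 35396 of 35403 Dicer KD reads of miR-148a and 33614 of 33620 control reads began at the same base. A start 1 nt downstream had 7 and 5 reads, and a start 2 nt upstream had 0 and 1. Reads that began at nt 3, which the assignment rule does not count, added 13 and 19. All reads of miR-148b and miR-152 began at the base where miR-148a begins.

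miR-148a was also even at its 3' end. Reads of 22 nt made up 92.3% (92.0 to 92.5%) of its reads in the Dicer KD library and 91.9% (91.6 to 92.2%) in the control library. The full form shown above, with 30986 and 29104 reads, held 87.5% (87.2 to 87.9%) and 86.6% (86.2 to 86.9%), and was the 36th and 34th most abundant of all sequences in its library. Sequences that stop short of this form held 1.10% (0.998 to 1.22%) and 1.09% (0.980 to 1.21%). In all, miR-148a was seen as 96 distinct sequences, 53 of them in both libraries.

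Other miRNAs with at least 1000 reads were mostly less even. With each compared to its own most abundant form, and leaving out entries that share their key sequence, miR-148a ranked 2 of 30 by the share of that form in both libraries. The other 29 had a median share of 49.6% in the Dicer KD library and 47.9% in the control library. The entry above miR-148a was its own partner strand, miR-148a-5p, with 89.3% and 90.9%. The share of shortened sequences was the second lowest of the 30 in both libraries, against a median of the others of 21.8% and 19.3%. miR-140-3p, known from cartilage, was lower, with 0.722% and 0.515%.

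**Figure D3:**
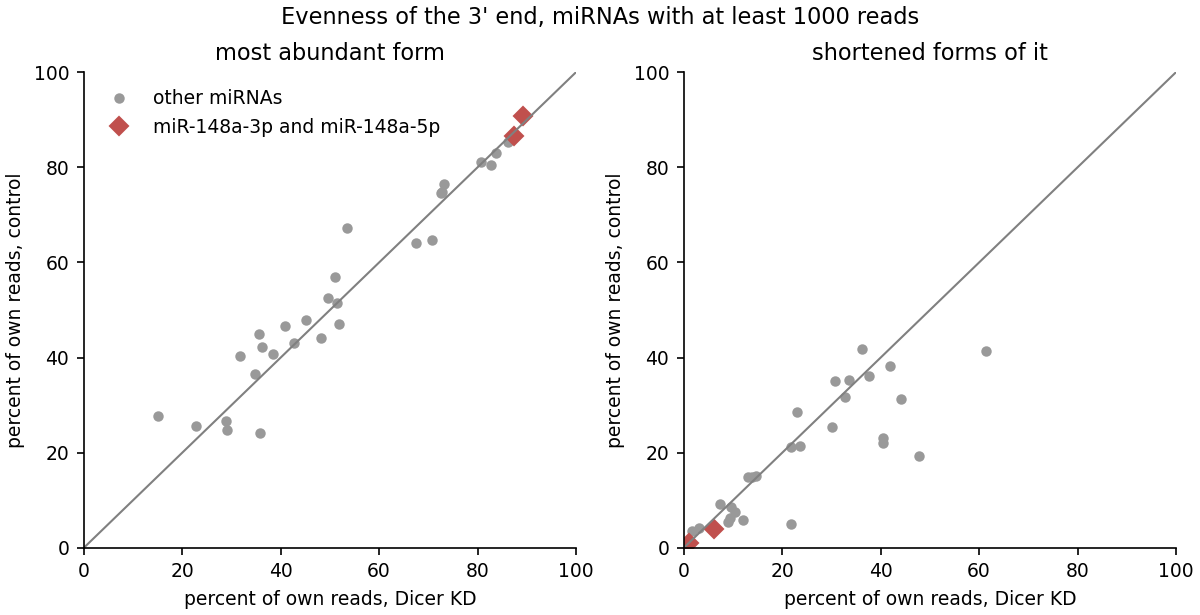
Share of its own reads that each miRNA has in its most abundant form (left) and in shortened versions of that form (right), in percent, Dicer KD library on the x axis and control library on the y axis, for 30 miRNAs with at least 1000 reads. Entries that share their key sequence are left out. The line marks equal shares; miR-148a-3p and miR-148a-5p are at the upper end of the left panel, with 87.5% and 89.3% of the Dicer KD reads, and at the lower end of the right panel.

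Among the minor 3' ends of miR-148a, those with cytosine had a lower share in the Dicer KD library. The full form with 1 cytosine added had 850 reads in the Dicer KD library and 1013 in the control library, 2.40% (2.24 to 2.57%) and 3.01% (2.83 to 3.20%) of miR-148a reads. The 22-nt form that ends in cytosine in place of thymine had 827 and 1007 reads, a ratio of shares of 0.780 (0.710 to 0.856). Sequences that ended in cytosine alone after nt 21 or after the full form summed to 1677 and 2025 reads. Their ratio of shares was 0.786 (0.737 to 0.839). Summed likewise, ends in adenine alone had 1838 and 1637 reads, a ratio of shares of 1.07 (0.997 to 1.14). Those in thymine alone had 215 and 241 reads, with 0.847 (0.702 to 1.02). Both of these ratios are within counting error of 1.
miR-148a-3p with cytosine added, 23 nt: tCAGTGCActacagaactttgtc
miR-148a-3p ending in cytosine, 22 nt: tCAGTGCActacagaactttgc
miR-148a-3p with adenine added, 23 nt: tCAGTGCActacagaactttgta
These forms show the ends whose shares are compared here.

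Ends with adenine did not share the lower level of the cytosine ends. The full form with 1 adenine added had 644 reads in the Dicer KD library and 551 in the control library, a ratio of shares of 1.11 (0.989 to 1.25) that is within counting error. With 2 or more adenines added it had 327 and 231 reads, 0.924% (0.827 to 1.03%) and 0.687% (0.602 to 0.781%), a ratio of shares of 1.34 (1.13 to 1.60). The 22-nt form that ends in adenine had 762 and 752 reads, a ratio of shares of 0.962 (0.869 to 1.07). Added thymines were rare, with 200 and 199 reads for 1 thymine, and 15 and 42 reads for 2 or more, a ratio of shares of 0.339 (0.175 to 0.624). Whether any of these bases is encoded in the hairpin or was added afterwards was not tested, because no hairpin sequence was used.

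Other miRNAs had ratios on both sides of 1 for the same ends. Among the 13 others with at least 100 reads that end in added adenines, the ratio of shares had a median of 0.832, with 9 below 1 and 4 above, and for miR-148a 1 and more adenines together made up 2.74% and 2.33%, a ratio of 1.18. Added cytosine reached 100 reads in 4 other miRNAs, with 2 ratios below 1 and 2 above, ranging between 0.655 and 1.32.

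**Figure D4:**
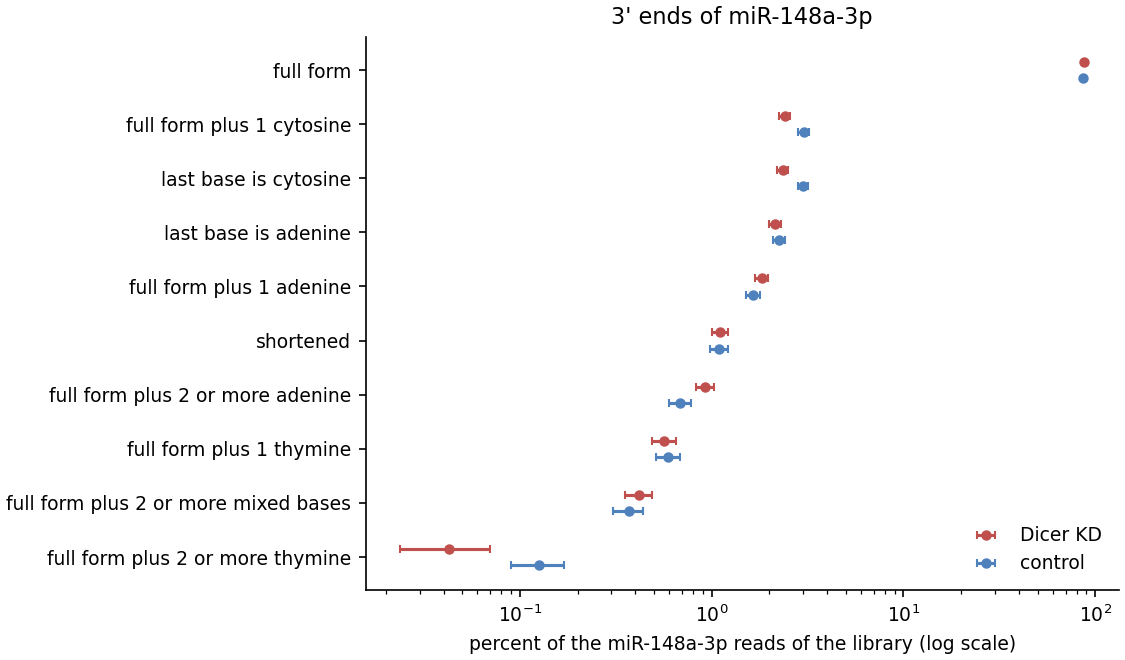
Share of each 3' end class among the miR-148a-3p reads of a library, in percent on a log scale, with exact 95% binomial intervals, for the Dicer KD and the control library; the full form is the 22-nt form with 87.5% and 86.6%. The intervals do not overlap between the libraries for both cytosine classes, 2 or more adenines, 2 or more thymines and, narrowly, the full form. The full form has a ratio of shares of 1.01. The conditional interval of that ratio, 0.995 to 1.03, treats counts as Poisson and is too wide for so large a share. The class of mixed remaining sequences and 2 classes with under 20 reads are not drawn.

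Among reads of 22 nt that differ from the full form by 1 base at nt 1 to 21, there were 456 in the Dicer KD library and 431 in the control library, 1.47% and 1.48% of the reads of the full form. The median was 13.0 and 11.0 reads per position. The most frequent in both libraries was C17T, with 95 and 135 reads or 0.307% and 0.464% of the full form, a ratio of 0.661 (0.503 to 0.866). C12T had 38 and 31 reads. Within the seed, C7G had 7 reads in the Dicer KD library and 38 in the control library, a ratio of 0.173 (0.0652 to 0.392), and T5C had 17 and 3, a ratio of 5.32 (1.54 to 28.3). These substitutions were picked after their counts had been seen, and whether they arose in the RNA, in PCR or in sequencing was not tested.

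Those substitutions set a background for miR-148b and miR-152, which differ from the far more abundant miR-148a at bases 9 and 10. With all other bases of nt 1 to 18 as in miR-148a, the 7 combinations of bases 9 and 10 that differ at both and belong to no member had 0 reads in each library, for which the exact 95% Poisson interval reaches 0.308 RPM in the Dicer KD library and 0.312 RPM in the control library. The 6 combinations that differ at 1 base had 27 reads in the Dicer KD library and 21 in the control library in all, with at most 12 and 13 for any of them. The 20 and 19 reads of miR-148b and the 28 Dicer KD reads of miR-152 stand above the other combinations that differ at both bases.

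miR-148b was set apart from miR-148a by thymines at its 3' end. In the Dicer KD library 17 of its 20 reads, 85.0% (62.1 to 96.8%), had 1 or more thymines after the 22-nt form, and in the control library 11 of 19, 57.9% (33.5 to 79.7%). For miR-148a the shares were 0.607% (0.529 to 0.694%) and 0.717% (0.629 to 0.813%), below the intervals of miR-148b in both libraries. The intervals of miR-148b overlap between the libraries. Added means here only that the thymines follow the 22-nt form. Whether they are encoded in the hairpin was not tested, and their share was not computed for miRNAs outside the family. The form with 2 added thymines had 15 reads in the Dicer KD library and 4 in the control library, a ratio of 3.70 (1.18 to 15.3). It ranks first for miR-148b by reads in both libraries together, most of them from the Dicer KD library, so this ratio is tied to that choice. Forms with 2 or more thymines made up 75.0% (50.9 to 91.3%) and 36.8% (16.3 to 61.6%) of miR-148b reads, and these intervals overlap. The 22-nt form had 1 and 7 reads, a ratio of 0.141 (0.00313 to 1.10), the form with 1 thymine 2 and 4, and the form with 3 thymines 0 and 3.
miR-148b-3p with 2 thymines added, 24 nt: tCAGTGCAtcacagaactttgttt
Restricted to reads of 21 to 23 nt, which leaves out the 24-nt form, miR-148b had 4 reads in the Dicer KD library and 11 in the control library, and its ratio was 0.359 (0.0834 to 1.21).

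miR-152 was seen mainly as short forms, and almost only in the Dicer KD library. Of its 28 Dicer KD reads, 15 were 18 nt long and 5 were 19 nt long, and neither length had a control read. With its 0 control reads set to a floor of 3, the 18-nt form was 4.94-fold higher in the Dicer KD library. This value is not a lower bound, since the exact interval of its ratio begins at 3.54.
miR-152-3p, 18 nt: tCAGTGCAtgacagaact
miR-152-3p, 19 nt: tCAGTGCAtgacagaactt
At 20 to 26 nt miR-152 had 8 Dicer KD reads and 1 control read, a ratio of 7.90 (1.06 to 351). None of its 8 distinct sequences was found in both libraries. The sum over a list of 5 miRNAs known from stromal and vascular cells was also higher. It stood at 127 RPM in the Dicer KD library and 28.8 RPM in the control library, a ratio of 4.42 (3.93 to 4.99). Of that list 4 had reads in the Dicer KD library and 3 in the control library, and miR-214 was at 0 in both. miR-143 held most of the sum, 118 and 24.2 RPM. miR-199a-3p had 93 and 54 reads, a ratio of 1.70 (1.20 to 2.43), short of 2-fold. In Dicer KD and control, miR-126-5p had 18 and 1 reads and miR-145 had 4 and 0. The part of such cells in the miR-152 reads was not tested.

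**Figure D5:**
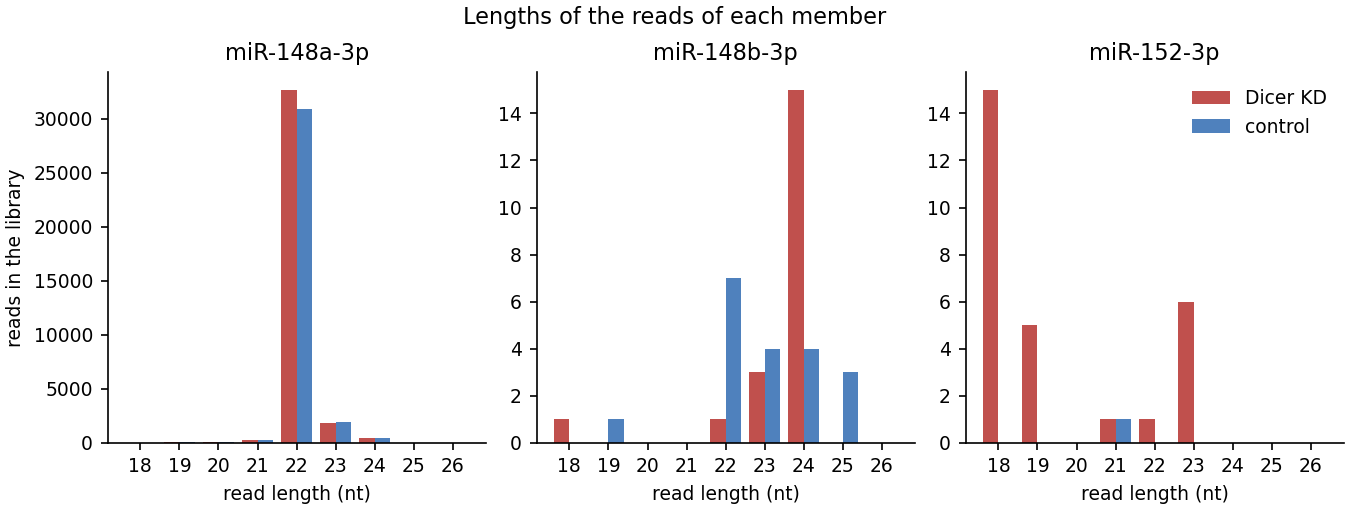
Reads by length, in nt, for miR-148a-3p, miR-148b-3p and miR-152-3p in the Dicer KD and the control library, each panel with its own scale of read counts starting at 0. miR-148a peaks at 22 nt with 32663 and 30910 reads, miR-148b peaks at 24 nt in the Dicer KD library and 22 nt in the control library, and miR-152 at 18 nt in the Dicer KD library.

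In RPM, the summed short forms of other miRNAs were also higher in the Dicer KD library. Reads of 18 to 19 nt of all other miRNA entries numbered 17709 in the Dicer KD library and 6229 in the control library, a ratio of 2.81 (2.73 to 2.89). miR-10b held 11981 and 3106 of these. At 18 nt alone, the main length of miR-152, the other entries had 5267 and 1142 reads, a ratio of 4.56 (4.27 to 4.86). The other entries' reads of 20 to 26 nt had a ratio of 0.995 (0.992 to 0.999). miR-148a had 79 and 96 reads of 18 to 19 nt, a ratio of 0.813 (0.596 to 1.11) that is within counting error of 1. At 18 nt alone miR-148a had 26 and 18 reads, a ratio of 1.43 (0.753 to 2.76), also within counting error. Reads that matched no miRNA entry had a ratio of 1.05 (1.04 to 1.05) at 18 to 19 nt and 1.21 (1.20 to 1.22) at 18 nt. Of the 14 other miRNAs with at least 1000 reads in all and at least 100 of 18 to 19 nt, 11 had a ratio above 1 and 3 below, with a median of 3.67. The minimum of 100 is over both libraries together, so an entry can pass it through the Dicer KD library alone. miR-423-3p did so, with 236 reads in the Dicer KD library and 3 in the control library. The count of 11 and the median are therefore tied to this selection and describe these 14 entries only. As a share of each miRNA's own reads, short forms were higher in the Dicer KD library for 7 of the 14 and lower for 7, and for miR-148a they made up 0.223% and 0.286%. Beside these 14, the RPM ratio of miR-148a at 18 to 19 nt is the third lowest, after let-7f at 0.691 and the entry shared by let-7a and let-7c at 0.782.

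The 5p partner strands were found for all 3 members. miR-148a-5p had 607 reads in the Dicer KD library and 530 in the control library, 50.7 and 44.8 RPM, a ratio of 1.13 (1.01 to 1.27). Its 22-nt form had 542 and 482 reads. The 3p strand outnumbered it 58.3-fold and 63.4-fold, so that the 5p strand made up 1.69% (1.56 to 1.82%) and 1.55% (1.42 to 1.69%) of the reads of both strands, with intervals that overlap.
miR-148a-5p, 22 nt: aAAGTTCTgagacactccgact
miR-148b-5p, 24 nt: gAAGTTCTgttatacactcaggct
miR-152-5p, 21 nt: aGGTTCTGtgatacactccga
For each 5p strand the form with the most reads is shown, with nt 2 to 8 of that form in capitals. All reads of miR-148b-5p began 1 nt upstream of the expected 5' end. miR-151, with 21.8% and 25.6% of its reads on the 5p strand, and miR-423, with 14.2% and 16.3% on the 3p strand, were less one-sided than miR-148a. miR-140, with 0 5p reads beside 1247 3p reads in the Dicer KD library (0 to 0.295%) and 1 beside 388 in the control library (0.257%, 0.00651 to 1.42%), had lower 5p shares than miR-148a.

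The other 5p strands were near the limit of detection. miR-148b-5p had 5 reads in the Dicer KD library, all in a 24-nt form, and 2 in the control library, all in a 23-nt form, a ratio of 2.47 (0.404 to 25.9). miR-152-5p had 3 and 0 reads, at or under the floor of 3 reads in both, so no fold is given. Reads of miR-148a-5p that run 2 or more bases past its 22-nt form, to 24 to 26 nt, numbered 10 and 6, and the 24-nt form among the 5 most abundant had 7 and 0.

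Few reads of the family lay outside the length rule. Reads over 26 nt that begin with miR-148a-3p numbered 48 in the Dicer KD library and 45 in the control library, and 43 and 43 of these were 41 nt or longer. For miR-148b and miR-152 there were 0. No read of any length held the reverse complement of nt 2 to 18 of any member, and the same upper limits of 0.308 and 0.312 RPM apply.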

How the data were processed

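The authors deposited 1 table per library with the raw read count of each distinct sequence of 18 to 44 nt, not normalized. Per the labels' protocols, adapters were ligated to small RNA and the cDNA was amplified by PCR and sequenced. The submitters' processing notes list Bowtie2. Its version, its role, the build and how adapters were trimmed are not given in the sources used here. Trimming and PCR bias could both shift the 3' ends described.

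Reads were matched to keys of nt 2 to 18 for 186 conserved mature miRNA strands, written from background knowledge of vertebrate miRNAs because no miRNA table was used, so pig-specific miRNAs are not counted. Strands that share a key were joined, which left 179 entries. A start 2 nt downstream cannot hold nt 2, so starts run from 2 nt upstream to 1 nt downstream. Printed sequences come from the deposited tables. The members, the marker lists and the naming rule (members, the 5 most abundant forms of each, up to 3 neighbours in reads on each side and the 3 nearest ratios) were chosen with earlier results of these data known.

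RPM, exact Poisson, binomial (Clopper-Pearson) and conditional intervals at 95% were computed. To give a ratio where the control had 0 reads, these were replaced by a floor of 3. Entries with 100 or more reads in all counted as past 2-fold when their ratio reached 2 or fell to 0.5 or less. No p-value was computed. Matching and intervals were tested on simulated reads. Python 3.11.15, numpy 2.4.6, pandas 2.3.3, scipy 1.17.1 and matplotlib 3.10.9 were used.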

Additional observations from a re-analysis of the deposited data

How the results depend on the processing

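Ratios were repeated under 10 alternatives covering length windows, the match, mismatches, the reads that values are relative to and rare sequences. The ratio of miR-148a stayed within its counting interval under 8 of them and that of the 3 members together under 8. Relative to reads of 18 to 26 nt they were 1.07 and 1.08, and relative to miRNA reads without miR-10b and miR-182 they were 0.894 and 0.895. The ratio of miR-148b was outside its interval for reads of 21 to 23 nt, at 0.359, where the 24-nt form is left out by construction. That of miR-152 ran from 7.90 to 28.6 and stayed within its wide interval under all 10, in 1 of them with no control read left, where it was 8.20 against the floor of 3 reads and the exact interval began at 6.19. Restricted to 21 to 23 nt, the full form of miR-148a held 89.1% and 88.1% of reads, since fewer forms are counted. The entries past 2-fold numbered 34 of 117 with a minimum of 10 reads and 10 of 33 with 1000, and members past 2-fold, where miR-148a alone had enough reads, were 0 of 1 under all 10 alternatives. With a minimum of 10 reads for the members, chosen after seeing the data, all 3 counted and 1 of them, miR-152, was past 2-fold. No paired analysis was possible because there is 1 library per group with no replicate number. Depth limits miR-148b, miR-152 and their 5p strands, each with under 100 reads.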
